A study of Saccharomyces cerevisiae with 12 samples.

Results

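The genes described here are 55 assembly factors of the 60S ribosomal subunit of the yeast Saccharomyces cerevisiae, chosen by name from a list of known factors and found in full among the 6352 genes of each comparison. They were followed in Δsbp1 and Δscd6 cells, which lack the gene SBP1 or SCD6, and in the wild type, BY4741, a haploid laboratory strain from which both deletions derive. Each strain was grown in rich glucose medium to an optical density of 0.4 to 0.5 and sampled after 30 minutes in 0.5% sodium azide, which inhibits respiration and ATP synthesis and induces RNA granules, or untreated. Every one of the 6 groups of strain and treatment had 2 libraries of total RNA, 12 in all. The purpose stated for the series was to find how the transcriptome of each strain changes with azide. Both deleted genes encode RGG-motif proteins that bind RNA, repress translation and enter P bodies, granules that hold factors of mRNA decay.

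The 60S subunit is built in the nucleolus on the precursor of the large ribosomal RNAs. Assembly factors fold and cut this RNA, modify it, hold places for ribosomal proteins and are released in order as the particle moves to the nucleoplasm and through the nuclear pore to the cytoplasm. In yeast their genes belong to the ribosome biogenesis regulon, which is known to be transcribed in fast growth and repressed in stress, and whose promoters are known for 2 short elements called PAC and RRPE.

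The deposited tables give, for each gene, 1 mean normalised count over all libraries and the fold change, p-value and adjusted p-value of 7 comparisons, and no value per library. The mean normalised count of the 55 genes ran from 312 for DBP7 to 5807 for TIF6 with a median of 884, against a median of 589 over all genes. Log2 changes are given below with an implied standard error, computed from the change and its p-value, whose median over the 55 genes was 0.23 to 0.24 within a comparison and 0.33 for a difference of azide responses. A gene is said to rise, to fall or to be called only where the adjusted p was under 0.05. Whether the libraries of a group came from separate cultures is not stated, so the spread between libraries behind the p-values may be technical. How the authors estimated that spread is not stated either. Over the 7 comparisons the implied error ran from 0.21 to 0.22 for MAK5 and from 0.23 to 0.31 for DBP7. Whether it was shared over groups or genes was not tested. A p-value or error here is therefore not to be read as the spread within the groups compared. The deleted genes checked the strain labels: by the authors' deposited table Δsbp1 cells held 0.300% of the wild type SBP1 level untreated and 1.30% with azide, and Δscd6 cells held 1.30% of the wild type SCD6 level untreated and 4.50% with azide. BY4741 is of mating type a, and genes of that type were present, with mean normalised counts of 5508 for STE2 and 2290 for BAR1, while STE3, an alpha gene, was at 62.1.

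The promoters of these genes share short sequences, and 7 stretches are shown because they cover the span of responses described below. PAC was searched as GATGAG and RRPE as AAAAATTTT on both strands, from 250 bases before to 50 after the start codon, in RefSeq sequence of assembly R64; a PAC match and an RRPE match cannot overlap, while RRPE can overlap itself on the other strand. Each stretch runs 5′ to 3′ on the gene's strand from 190 to 71 bases before the start codon, in lower case with matches in capitals. MAK16, RIX7 and NOG1 were among the largest falls with azide and hold both elements, at chrI:101216-101335 on the minus strand, chrXII:73217-73336 on the minus strand and chrXVI:370788-370907 on the plus strand.
MAK16: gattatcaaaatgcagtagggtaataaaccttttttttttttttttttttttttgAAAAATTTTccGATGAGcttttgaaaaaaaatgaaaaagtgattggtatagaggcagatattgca
RIX7: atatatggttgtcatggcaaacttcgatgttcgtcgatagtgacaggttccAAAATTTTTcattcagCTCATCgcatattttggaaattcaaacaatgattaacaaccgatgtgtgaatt
NOG1: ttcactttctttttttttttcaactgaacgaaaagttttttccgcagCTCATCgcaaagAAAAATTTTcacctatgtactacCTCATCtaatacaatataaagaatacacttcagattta

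SPB1 at chrIII:31259-31378 on the plus strand fell as far, and its window holds RRPE, here on both strands at once, without PAC. NOP4 at chrXVI:469749-469868 on the plus strand also fell, and holds PAC without RRPE. RPF1 at chrVIII:281305-281424 on the plus strand holds both elements and was the only one of the 55 genes to rise in any strain by the deposited adjusted p. NOP16 at chrV:156613-156732 on the plus strand holds PAC alone and was not called with azide in any strain.
SPB1: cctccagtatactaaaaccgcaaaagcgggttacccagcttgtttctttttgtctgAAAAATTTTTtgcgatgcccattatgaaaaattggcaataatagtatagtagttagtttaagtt
NOP4: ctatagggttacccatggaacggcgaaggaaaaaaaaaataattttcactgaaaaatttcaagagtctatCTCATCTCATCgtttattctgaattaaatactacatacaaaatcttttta
RPF1: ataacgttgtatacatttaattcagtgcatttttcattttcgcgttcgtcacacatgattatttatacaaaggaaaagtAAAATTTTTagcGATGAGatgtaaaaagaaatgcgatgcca
NOP16: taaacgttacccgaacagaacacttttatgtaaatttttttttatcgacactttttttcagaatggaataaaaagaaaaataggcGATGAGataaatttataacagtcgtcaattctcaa

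Azide lowered most of the assembly factor genes in all 3 strains, furthest in Δsbp1 cells and least in Δscd6 cells. Of the 55 genes, 47 fell and 1 rose in Δsbp1, where 27.4% of all genes fell and 27.5% rose. In Δscd6 30 fell and 0 rose, against 20.4% and 22.1% of all genes. In the wild type 39 fell and 0 rose, against 20.6% and 21.3% of all genes. The same shares of all genes are to be set beside the counts by role below. The median log2 change over the 55 genes was -1.70 in Δsbp1, -0.54 in Δscd6 and -0.92 in the wild type, while the median over all genes was -0.02 in Δsbp1, -0.02 in Δscd6 and -0.01 in the wild type. In a bulk culture, less RNA of a gene in every cell and fewer cells that express it cannot be told apart.

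Falls were called in all 3 strains for 28 genes, in Δsbp1 and the wild type but not Δscd6 for 11, in Δsbp1 and Δscd6 but not the wild type for 2, and in Δsbp1 alone for 6. The remaining 8 fell in no strain. The change was more negative in Δsbp1 than in the wild type for 52 genes and less negative in Δscd6 than in the wild type for 45. Of all 6352 genes, 3150 had a lower change in Δsbp1 and 3428 a higher change in Δscd6 than in the wild type. The order Δsbp1, wild type, Δscd6 from lowest to highest was followed by 44 of the 55 genes. The azide changes of the genes were correlated between strains. Across the 55 genes Pearson's r was 0.94 for Δsbp1 with the wild type, 0.90 for Δsbp1 with Δscd6 and 0.88 for Δscd6 with the wild type. Over all genes it was 0.85 for Δsbp1 with the wild type, 0.81 for Δsbp1 with Δscd6 and 0.71 for Δscd6 with the wild type. These comparisons share no libraries, and the correlations are across genes, which are not independent replicates.

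**Figure D1:**
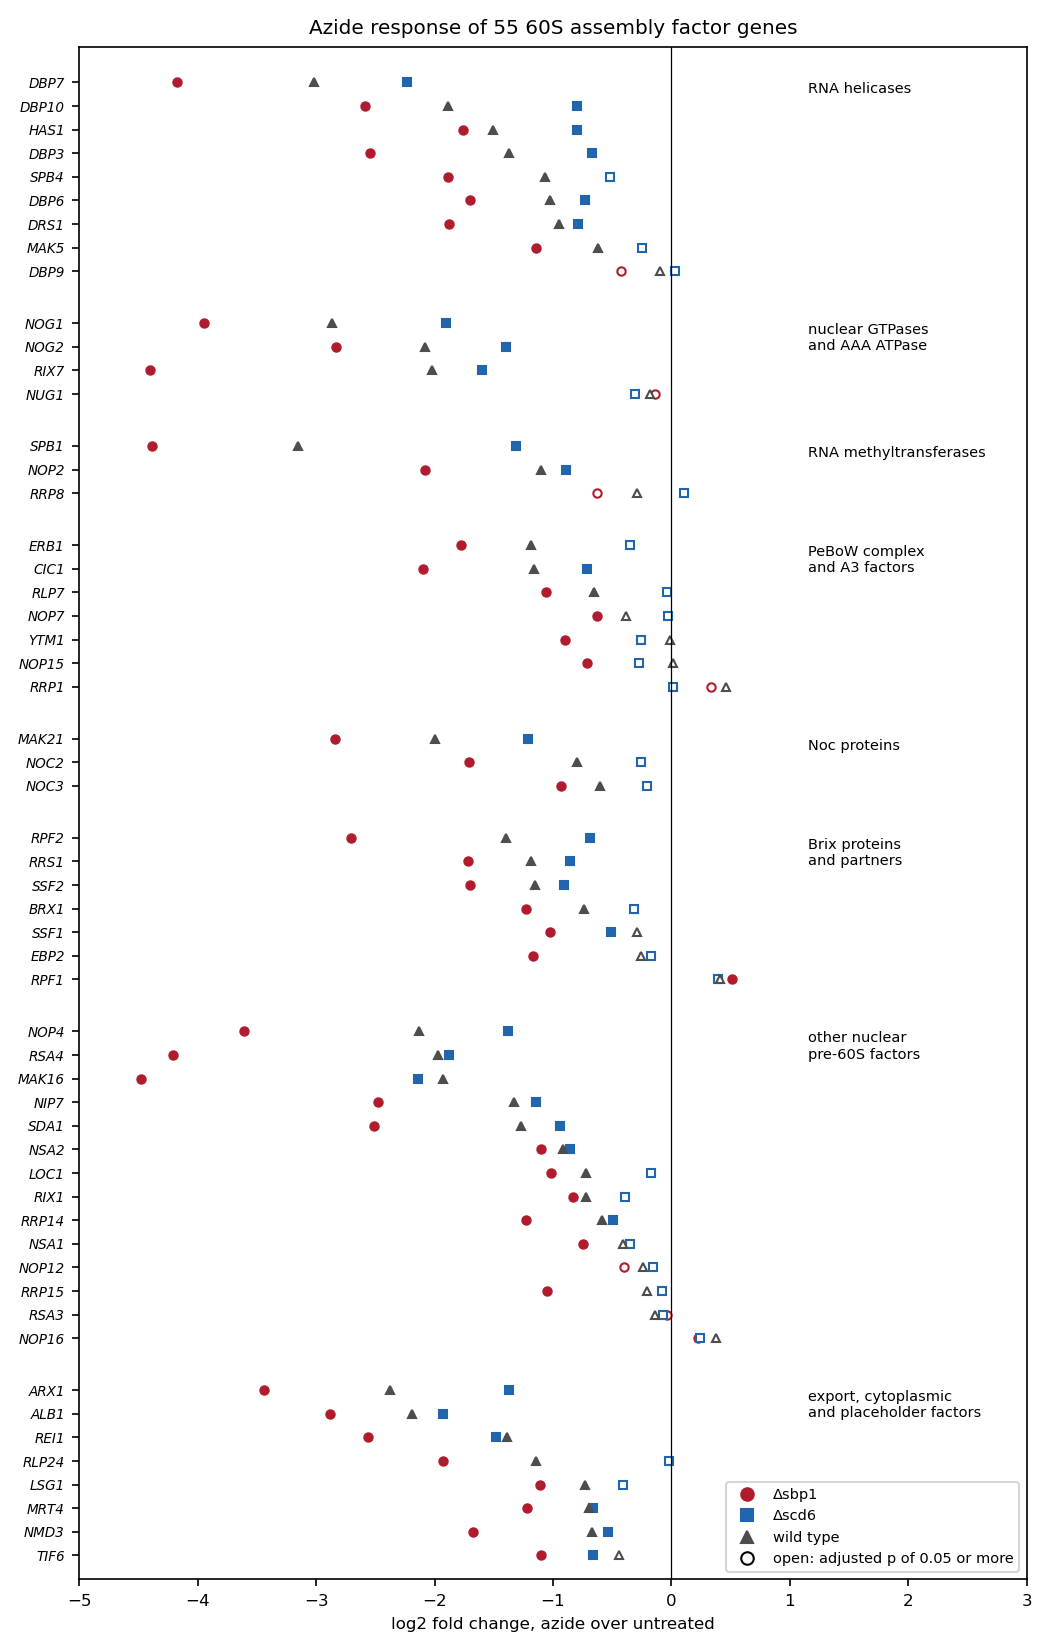
Log2 fold change of azide over untreated cells (x axis) for each of the 55 genes, grouped by role and ordered within a role by the wild type, in Δsbp1 (circles), Δscd6 (squares) and wild type (triangles). Filled symbols passed an adjusted p under 0.05; the Δsbp1 symbols lie furthest left for most genes and reach -4.48, and RPF1 is the only filled symbol right of 0.

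The group means restate the same fall as normalised counts and are not separate evidence for it. Means were rebuilt from the overall mean and the fold changes, with each of the 6 groups weighted equally, and have no error or test. The summed normalised counts of the 55 genes were 23843 with azide and 62876 untreated in Δsbp1, 53679 with azide and 81253 untreated in Δscd6, and 47023 with azide and 84771 untreated in the wild type. As a share of the rebuilt total of all genes that was 0.204% with azide and 0.443% untreated in Δsbp1, 0.411% with azide and 0.474% untreated in Δscd6, and 0.369% with azide and 0.599% untreated in the wild type. Azide-treated Δsbp1 had the lowest of the 6 means for 52 of the 55 genes, and untreated wild type the highest for 37. Per kilobase of coding length, TIF6 had the highest mean in every group and DBP7 the lowest, at 3908 and 12.3 in azide-treated Δsbp1 cells and at 8019 and 282 in untreated wild type cells.

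The rebuilt totals of all genes were lower in azide-treated than in untreated cells of each strain. Scaling to equal totals moves every log2 change up by 0.28 for azide in Δsbp1, by 0.39 in Δscd6 and by 0.15 in the wild type. Then 44 of the 55 genes fell and 2 rose in Δsbp1. In Δscd6 16 of 54 tested fell and 2 rose, and in the wild type 32 of 53 tested fell and 2 rose. Genes whose change was too small to imply an error were not tested. Over all genes that scaling gave 19.4% fallen and 38.7% risen in Δsbp1, 8.46% fallen and 40.2% risen in Δscd6, and 15.7% fallen and 27.6% risen in the wild type. The median of the 55 genes was then -1.42 in Δsbp1, -0.15 in Δscd6 and -0.76 in the wild type, so the size of the fall in Δscd6 depends most on the scaling.

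**Figure D2:**
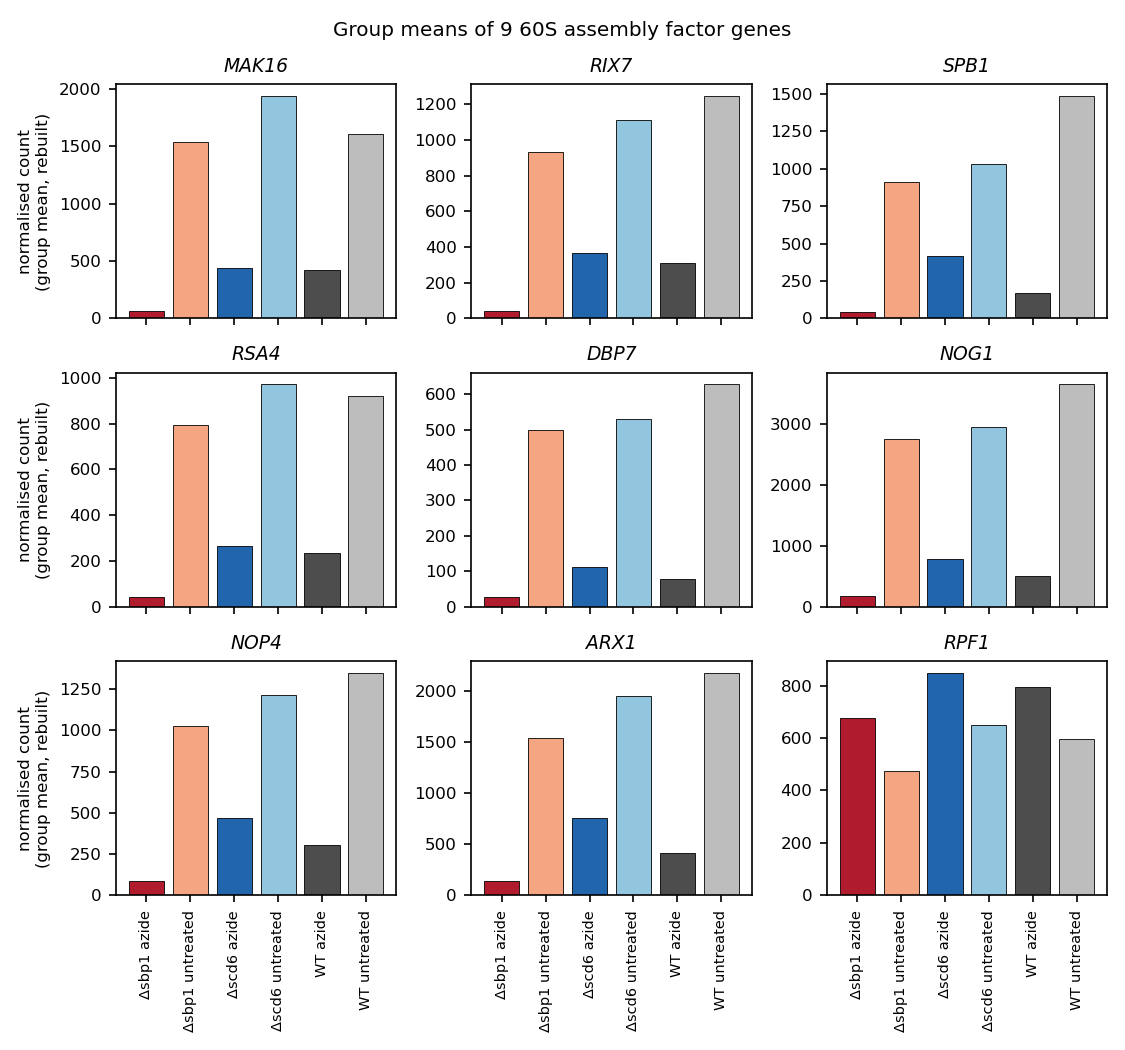
Rebuilt mean normalised counts (y axis, linear, from 0) in the 6 groups of strain and treatment for the 8 genes with the largest falls in Δsbp1 and for RPF1; bars are group means without error bars, since no value per library was used. The first bar, azide-treated Δsbp1, is the lowest in 8 of the 9 panels, and only RPF1 is higher with azide than untreated in every strain.

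Of the 9 DEAD-box RNA helicases, enzymes that remodel the precursor RNA, 8 fell in Δsbp1, 6 in Δscd6 and 8 in the wild type, and 0 rose. DBP7, which acts on the earliest pre-60S particles, had mean normalised counts of 27.4 with azide and 499 untreated in Δsbp1, 113 with azide and 529.9 untreated in Δscd6, and 77.3 with azide and 628 untreated in the wild type. All 3 azide-treated means lay far below all 3 untreated means. The authors' deposited table gave DBP7 log2 changes of -4.18 ± 0.29 in Δsbp1 (adjusted p = 1.2e-43), -2.23 ± 0.25 in Δscd6 (1.2e-16) and -3.02 ± 0.26 in the wild type (1.6e-28), each with its implied standard error. DBP10, a nucleolar helicase, was at 144 with azide and 868 untreated in Δsbp1, 752 with azide and 1309 untreated in Δscd6, and 393 with azide and 1455 untreated in the wild type. Its azide-treated mean was thus highest in Δscd6 and lowest in Δsbp1. The helicase at the other end was DBP9, which the authors' deposited table listed at -0.43 in Δsbp1 (adjusted p = 0.075), 0.03 in Δscd6 (0.92) and -0.10 in the wild type (0.75). DBP3, DBP6, DRS1, HAS1, MAK5 and SPB4 lay between, at -2.55 to -1.14 in Δsbp1 and -1.51 to -0.62 in the wild type in the authors' deposited table.

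Among the nuclear GTPases and the AAA ATPase, 3 of 4 fell in each strain. NOG1, a GTPase that stays on the particle from the nucleolus to the cytoplasm, had 178 normalised counts with azide and 2749 untreated in Δsbp1, 793 with azide and 2950 untreated in Δscd6, and 499 with azide and 3652 untreated in the wild type. RIX7, the AAA ATPase that strips Nsa1 from the nucleolar particle, had 44.0 with azide and 932 untreated in Δsbp1, 366 with azide and 1110 untreated in Δscd6, and 308 with azide and 1248 untreated in the wild type. For both genes the 3 untreated means were close to each other and the azide-treated means were set apart by strain. In the authors' deposited table RIX7 changed by -4.40 ± 0.28 in Δsbp1 (adjusted p = 1.4e-54), -1.60 ± 0.23 in Δscd6 (1.4e-10) and -2.02 ± 0.23 in the wild type (3.3e-16). NOG2, a GTPase whose release precedes export, fell as well, by 2.83 in Δsbp1, 1.40 in Δscd6 and 2.08 in the wild type in the authors' deposited table. The GTPase NUG1 was not called in any strain, with -0.14 (interval -0.56 to 0.28) in Δsbp1, -0.31 (-0.73 to 0.11) in Δscd6 and -0.18 (-0.60 to 0.23) in the wild type from the authors' deposited table and the 95% interval of the implied error. NOG2 carries the small nucleolar RNA SNR191 within its limits in assembly R64, which was not used here.

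Of the 3 methyltransferases of ribosomal RNA, 2 fell in each strain. SPB1, which methylates the ribose of a base in the catalytic centre, had 43.2 normalised counts with azide and 909.8 untreated in Δsbp1, 416 with azide and 1031 untreated in Δscd6, and 168 with azide and 1489 untreated in the wild type. Its strains were ordered Δsbp1, wild type, Δscd6 with azide, and untreated the wild type was highest. The authors' deposited table gave SPB1 the largest fall of the 55 genes in the wild type, -3.15 ± 0.26 (adjusted p = 1.1e-32), against -4.39 ± 0.29 in Δsbp1 (5.7e-51) and -1.31 ± 0.24 in Δscd6 (4.6e-07). NOP2, a cytosine methyltransferase, was at -2.08 in Δsbp1, -0.89 in Δscd6 and -1.10 in the wild type in the authors' deposited table, and fell in all 3. RRP8, an adenine methyltransferase, was not called in any strain and stood at -0.63 in Δsbp1 (adjusted p = 0.058), 0.11 in Δscd6 (0.79) and -0.29 in the wild type (0.44) in the authors' deposited table.

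The PeBoW complex, made of Nop7, Erb1 and Ytm1, and the factors with which it removes the first internal spacer had the smallest median falls of the 8 roles in Δsbp1, at -0.90, and in the wild type, at -0.38. Of the 7 genes 6 fell in Δsbp1, 1 in Δscd6 and 3 in the wild type, against 27.4%, 20.4% and 20.6% of all genes. The 1 in Δscd6 does not set the role apart from all genes. ERB1 had the largest fall of the role in the wild type, with 448 normalised counts with azide and 1535 untreated in Δsbp1, 1262 with azide and 1604 untreated in Δscd6, and 998 with azide and 2271 untreated in the wild type. The authors' deposited table gave ERB1 -1.78 ± 0.24 in Δsbp1 (adjusted p = 8.1e-13), -0.35 ± 0.23 in Δscd6 (0.22) and -1.19 ± 0.23 in the wild type (2.4e-06). CIC1, which binds the second internal spacer, was the gene of this role that fell in Δscd6, by 0.71 (adjusted p = 0.016 in the authors' deposited table). NOP7, YTM1 and NOP15 fell in Δsbp1 alone: the authors' deposited table listed NOP7 at -0.63 in Δsbp1 and -0.38 in the wild type, YTM1 at -0.90 in Δsbp1 and -0.01 in the wild type, and NOP15 at -0.71 in Δsbp1 and 0.01 in the wild type. RRP1, a nucleolar factor, was not called and was the highest of the 55 genes in the wild type at 0.46 (adjusted p = 0.057), with 0.33 in Δsbp1 (0.17) and 0.01 in Δscd6 (0.98) by the authors' deposited table.

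All 3 Noc genes, whose products escort particles from the nucleolus to the nucleoplasm, fell in Δsbp1 and in the wild type, and 1 of them in Δscd6. With 20.4% of all genes falling in Δscd6, 1 of 3 there does not set the role apart. MAK21, also called NOC1, was at 199.6 normalised counts with azide and 1429 untreated in Δsbp1, 775 with azide and 1792 untreated in Δscd6, and 539.8 with azide and 2152 untreated in the wild type. It was the gene of the role called in all 3 strains. NOC3 was the smallest fall, at -0.93 in Δsbp1 (adjusted p = 5.0e-04) and -0.60 in the wild type (0.036) in the authors' deposited table, while Δscd6 gave -0.21 (0.50).

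Brix proteins and their partners split. Of the 7 genes 6 fell and 1 rose in Δsbp1, 4 fell in Δscd6 and 4 in the wild type. RPF2, which with RRS1 brings the 5S RNA particle into the subunit, had 119.9 normalised counts with azide and 782 untreated in Δsbp1, 561 with azide and 906 untreated in Δscd6, and 427 with azide and 1122 untreated in the wild type. The authors' deposited table listed RPF2 at -2.71 ± 0.23 in Δsbp1 (adjusted p = 2.4e-29), -0.69 ± 0.21 in Δscd6 (0.0043) and -1.40 ± 0.21 in the wild type (1.4e-09). EBP2, a partner of Brx1, fell in Δsbp1 alone, by 1.17 (adjusted p = 1.8e-07), and stood at -0.17 in Δscd6 and -0.26 in the wild type in the authors' deposited table. SSF1 and SSF2 are near-identical copies whose reads may be shared. In the authors' deposited table SSF1 was at -1.03 in Δsbp1, -0.51 in Δscd6 and -0.29 in the wild type, the last not called (adjusted p = 0.27), and SSF2 at -1.70 in Δsbp1, -0.91 in Δscd6 and -1.15 in the wild type, all called.

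RPF1 ran the other way. It had 678 normalised counts with azide and 476 untreated in Δsbp1, 849.7 with azide and 649 untreated in Δscd6, and 796 with azide and 598 untreated in the wild type. Its mean was higher with azide in each strain, by 0.51 ± 0.23 in Δsbp1 (adjusted p = 0.046), with 0.39 ± 0.23 in Δscd6 (0.15) and 0.41 ± 0.22 in the wild type (0.13), of which the first passed in the authors' deposited table. At equal totals RPF1 was called a rise in all 3 strains, RRP1 in Δsbp1 and the wild type, and NOP16 in Δscd6. In Δscd6 RRP1 was not tested at equal totals, since its change was too small to imply an error. Centring on the median gene also made RRP1 a called rise in the wild type. Rpf1 is known to work in a module with Mak16, Nsa1 and Rrp1 from which Rix7 removes Nsa1, and these genes, set side by side after their values were seen, spread widely: in the authors' deposited table MAK16 was at -4.48 ± 0.36, NSA1 at -0.75 ± 0.21, RRP1 at 0.33 ± 0.21 and RPF1 at 0.51 in Δsbp1 cells. In the wild type the authors' deposited table gave -1.93 for MAK16, -0.41 for NSA1, 0.46 for RRP1 and 0.41 for RPF1.

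The 14 other nuclear factors ran from the largest fall in Δsbp1 to genes that were not called. Of them 11 fell in Δsbp1, 7 in Δscd6 and 9 in the wild type. MAK16 had 68.9 normalised counts with azide and 1534 untreated in Δsbp1, 440.1 with azide and 1939 untreated in Δscd6, and 422 with azide and 1604 untreated in the wild type. RSA4, which links the particle to the large ATPase Rea1 for remodelling, had 43.0 with azide and 795 untreated in Δsbp1, 264 with azide and 972 untreated in Δscd6, and 235 with azide and 918 untreated in the wild type. For these genes azide-treated Δscd6 and wild type cells had close means and azide-treated Δsbp1 stood well below both. The authors' deposited table gave RSA4 -4.21 ± 0.27 in Δsbp1 (adjusted p = 1.1e-50), -1.88 ± 0.24 in Δscd6 (5.9e-14) and -1.97 ± 0.24 in the wild type (2.7e-15). NOP4, an RNA-binding protein of the nucleolus, was at 84.5 normalised counts with azide and 1029 untreated in Δsbp1, 468 with azide and 1214 untreated in Δscd6, and 307 with azide and 1350 untreated in the wild type. Its azide-treated mean was highest in Δscd6, unlike its untreated mean. NIP7, SDA1, NSA2 and RRP14 fell in all 3 strains, by 1.10 to 2.51 in Δsbp1 in the authors' deposited table. LOC1 and RIX1 fell in Δsbp1 and in the wild type. RRP15 and NSA1 fell in Δsbp1 alone, by 1.05 and 0.75 in the authors' deposited table.

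NOP16, NOP12 and RSA3 were not called in any strain. RSA3 had 777 normalised counts with azide and 799 untreated in Δsbp1, 816 with azide and 859.6 untreated in Δscd6, and 873 with azide and 965 untreated in the wild type, a narrow span over all 6 groups. The authors' deposited table and the implied error gave RSA3 -0.04 in Δsbp1 (95% interval -0.52 to 0.43), -0.07 in Δscd6 (-0.55 to 0.40) and -0.14 in the wild type (-0.62 to 0.33). NOP16 stood at 0.22 (-0.28 to 0.72) in Δsbp1, 0.24 (-0.26 to 0.73) in Δscd6 and 0.38 (-0.12 to 0.87) in the wild type by the authors' deposited table. NOP12, an RNA-binding protein, was at -0.40 (-0.85 to 0.05) in Δsbp1, -0.16 (-0.61 to 0.28) in Δscd6 and -0.24 (-0.68 to 0.20) in the wild type by the authors' deposited table. Rsa3 is known to act in a complex with Dbp6 and Urb1, and in contrast to RSA3 the authors' deposited table listed DBP6 as fallen, at -1.70 in Δsbp1, -0.73 in Δscd6 and -1.03 in the wild type. With these 3 genes, DBP9, NUG1, RRP8 and RRP1 make up the 7 that passed in no azide comparison.

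All 8 genes of export, cytoplasmic maturation and place holding fell in Δsbp1, 6 in Δscd6 and 7 in the wild type. ARX1, whose product helps the particle through the nuclear pore, had 142 normalised counts with azide and 1544 untreated in Δsbp1, 753 with azide and 1952 untreated in Δscd6, and 419.6 with azide and 2182 untreated in the wild type. ALB1, its binding partner, had 74.9 with azide and 552 untreated in Δsbp1, 253 with azide and 966 untreated in Δscd6, and 175 with azide and 795 untreated in the wild type. Both were thus lowest in azide-treated Δsbp1 and, among azide-treated cells, highest in Δscd6. REI1, which takes Arx1 off in the cytoplasm, fell by 2.56 in Δsbp1, 1.48 in Δscd6 and 1.39 in the wild type by the authors' deposited table. REI1 overlaps SLM6 on the other strand, which stood at -2.55 in Δsbp1, -1.21 in Δscd6 and -1.39 in the wild type in the authors' deposited table, and without a stated strand setting the reads of the pair cannot be told apart.

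RLP24, a placeholder for a ribosomal protein of the same family, had 268 normalised counts with azide and 1024 untreated in Δsbp1, 1239 with azide and 1257 untreated in Δscd6, and 700.3 with azide and 1538 untreated in the wild type. Its Δscd6 means hardly differed between treatments: the authors' deposited table gave -0.02 ± 0.25 there (adjusted p = 0.96), against -1.93 ± 0.26 in Δsbp1 (1.8e-12) and -1.14 ± 0.25 in the wild type (4.4e-05). TIF6, which keeps the subunits from joining too early, changed least of this role in the wild type, with -0.44 (adjusted p = 0.096), and the authors' deposited table listed it as fallen by 1.10 in Δsbp1 and 0.66 in Δscd6. The export adaptor NMD3 and the placeholder MRT4 fell in all 3 strains, and the GTPase LSG1, which releases Nmd3, fell in Δsbp1 and in the wild type.

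Compared directly with the wild type in azide, Δsbp1 cells had lower levels of nearly all these genes. Of the 55 genes 49 were called lower and 0 higher, against 11.9% and 9.29% of all genes, and all 55 lay below 0. The median log2 difference was -1.15, against -0.01 over all genes. In the authors' deposited table the largest were RIX7 at -2.81 ± 0.27 (adjusted p = 2.6e-22), MAK16 at -2.61 ± 0.34 (1.3e-12) and RSA4 at -2.45 ± 0.27 (4.5e-17). They were followed in the authors' deposited table by SPB1 at -1.95, SDA1 at -1.95, NOP4 at -1.86, RPF2 at -1.83 and DBP3 at -1.78. Sda1 is a factor of the late nuclear particle, and SDA1 had 242 normalised counts in azide-treated Δsbp1 and 931 in azide-treated wild type cells. The 6 genes not called were NSA2, NUG1, NOP16, RSA3, RPF1 and RRP1, at -0.51 to -0.17 in the authors' deposited table. At equal totals 45 were lower and 0 higher, with 9.44% of all genes lower and 16.3% higher.

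Untreated Δsbp1 cells differed less from the wild type. There 3 of the 55 genes were called lower and 0 higher, against 0.441% and 1.54% of all genes. The authors' deposited table listed RRP14, a nucleolar factor, at -0.78 ± 0.19 (adjusted p = 0.0049), DBP10 at -0.75 ± 0.22 (0.033) and SDA1 at -0.71 ± 0.21 (0.040). RRP14 had 644 normalised counts in untreated Δsbp1 and 1108 in untreated wild type cells. The sign was shared more widely than the calls: 54 of the 55 genes lay below 0, with a median of -0.45 against -0.01 over all genes, and 25 were lower at an unadjusted p under 0.05, against 326 of all 6352 genes. TIF6 was the exception, at 0.06 in the authors' deposited table.

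The fall with azide itself was larger in Δsbp1 than in the wild type for 9 genes by the test of the difference of the 2 azide responses, and smaller for 0, against 1.67% and 0.553% of all genes. The median difference over the 55 genes was -0.70. MAK16 differed by -2.55 ± 0.47 (adjusted p = 8.5e-05 over all genes), RIX7 by -2.38 ± 0.36 (1.5e-07) and RSA4 by -2.24 ± 0.36 (1.2e-06). NOP4 followed at -1.47 ± 0.32 (0.0010) and RPF2 at -1.31 ± 0.32 (0.0046). The other 4 were SDA1, DBP3, REI1 and NIP7, at -1.24, -1.19, -1.17 and -1.16. SPB1, whose fall in Δsbp1 was among the largest, differed from the wild type by -1.24 ± 0.38 and did not pass (adjusted p = 0.052). Nor did RPF1 at 0.10 (95% interval -0.53 to 0.72), NUG1 at 0.04 (-0.54 to 0.63) or RSA3 at 0.10 (-0.57 to 0.78).

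**Figure D3:**
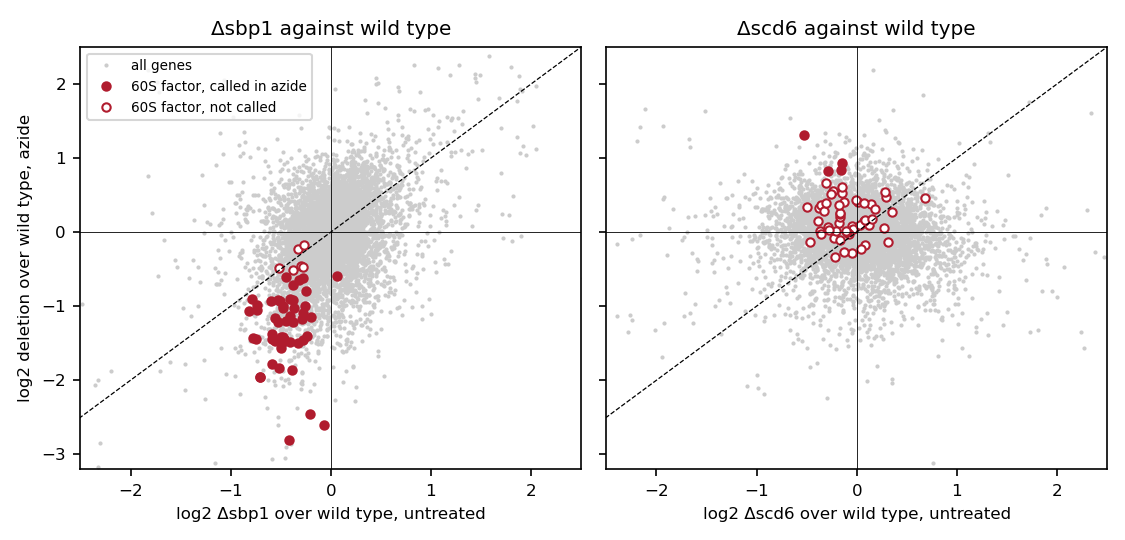
Log2 fold change of the deletion strain over the wild type in azide (y axis) against the same in untreated cells (x axis), for Δsbp1 (left) and Δscd6 (right); grey points are all genes within the axes, red symbols the 55 assembly factor genes, filled where called in azide, and the dashed line marks equal values. In Δsbp1 all 55 lie below 0 on the y axis with a median of -1.15, while in Δscd6 44 of the 55 lie above 0 with a median of 0.20.

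Δscd6 cells went the other way in azide, with fewer calls. Against the wild type in azide 4 of the 55 genes were higher and 0 lower, with 2.03% and 2.28% of all genes. Of the 55, 44 lay above 0, as did 3444 of all 6352 genes. The median log2 difference was 0.20, against 0.03 over all genes. By the authors' deposited table SPB1 was higher by 1.31 ± 0.25 (adjusted p = 2.4e-05), DBP10 by 0.94 ± 0.22 (0.0016), ARX1 by 0.84 ± 0.27 (0.039) and RLP24 by 0.82 ± 0.25 (0.028). In untreated cells 0 of the 55 passed, by the authors' deposited adjusted p, against 1.07% of all genes lower and 1.45% higher. At an unadjusted p under 0.05, 2 of the 55, SPB1 and ERB1, were lower, against 652 of all 6352 genes. TIF6 went the other way, at 0.68 with an adjusted p of 0.063 in the authors' deposited table. The median there was -0.15. At equal totals, which lowers every log2 value of that comparison by 0.28, 10 of 53 tested were called lower in untreated Δscd6. Of all genes 19.6% were then called lower, so their share was near that of all genes.

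The azide response differed between Δscd6 and the wild type for 3 genes, all with a smaller fall in Δscd6, against 2.18% of all genes with a more positive and 1.94% with a more negative difference. SPB1 differed by 1.84 ± 0.35 (adjusted p = 4.4e-05), RLP24 by 1.11 ± 0.36 (0.048) and DBP10 by 1.09 ± 0.31 (0.019), and the median over the 55 genes was 0.32. With the differences centred on the median gene, 2 passed. MAK16, at -0.21 (95% interval -1.08 to 0.66), and RSA4, at 0.08 (-0.57 to 0.74), did not pass.

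Set against each other, the deletion strains differed most. Δsbp1 minus Δscd6 had a value for 54 of the 55 genes, all but RRP1, whose change in Δscd6 was too small to imply an error. Of these 26 were called more negative in Δsbp1 and 0 more positive, against 4.04% and 1.53% of all genes, with a median of -0.97. SPB1 differed by -3.08 (adjusted p = 2.4e-13), RIX7 by -2.80 (1.0e-11), MAK16 by -2.34 (7.8e-05), RSA4 by -2.33 (4.5e-08) and NOP4 by -2.23 (5.6e-10). By role, the difference was called for 5 of the 9 helicases, 3 of the 4 GTPases and AAA ATPase, 2 of the 3 methyltransferases, 2 of the 7 PeBoW and associated genes, 2 of the 3 Noc genes, 3 of the 7 Brix genes and partners, 5 of the 14 other nuclear factors and 4 of the 8 export and cytoplasmic factors.

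The promoter elements shown above were common in the set. PAC was found in 52 of the 55 promoters, 94.5%, against 19.8% of 5754 promoters of the annotation. RRPE was found in 39, 70.9%, against 7.26%. Both were found in 36, PAC without RRPE in 16, and RRPE without PAC in 3, namely SPB1, NSA1 and RIX1. A match describes letters in a window and was not tested for binding of a factor. The genes lie on 15 chromosomes, 32 of them on the plus strand, with 0 pairs next to each other.

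**Figure D4:**
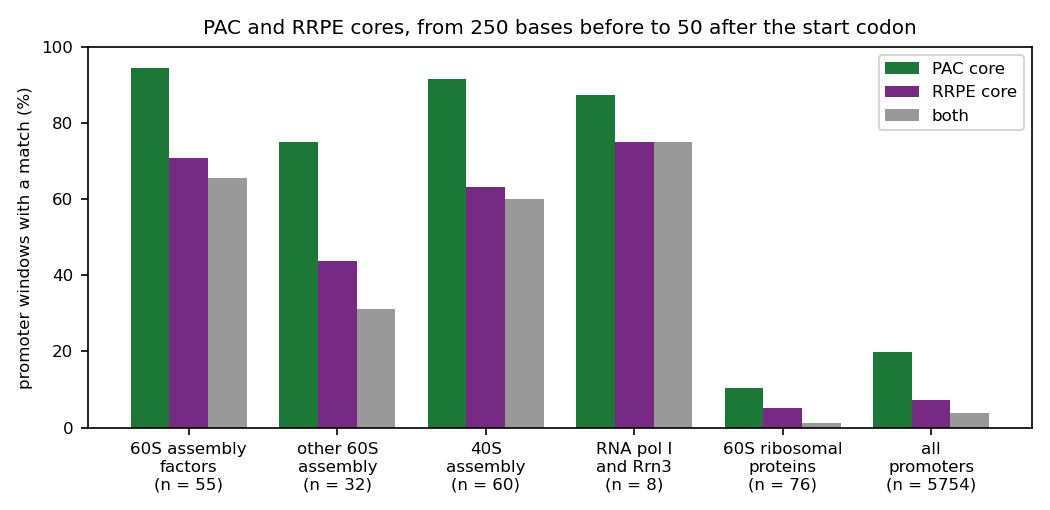
Share of promoter windows (y axis, percent) with a PAC core, an RRPE core and both, from 250 bases before to 50 after the start codon, for the 55 assembly factor genes, 4 other gene lists and all 5754 promoters. PAC stands at 94.5% in the 55 genes and at 19.8% in all promoters. It is at 91.7% in 40S assembly genes, 87.5% in RNA polymerase I and Rrn3 genes and 75.0% in other 60S assembly genes. Large-subunit ribosomal protein genes are at 10.5%.

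The elements had preferred places. PAC matches started at a median of -119 bases from the start codon (quartiles -138 and -97), and RRPE matches at -141 (quartiles -163 and -132), so RRPE tended to lie upstream. In the 36 promoters with both, the nearest pair started 18 bases apart at the median, and 26 pairs lay within 30 bases of each other. In MAK16, for example, RRPE starts at -135 and PAC at -124.

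**Figure D5:**
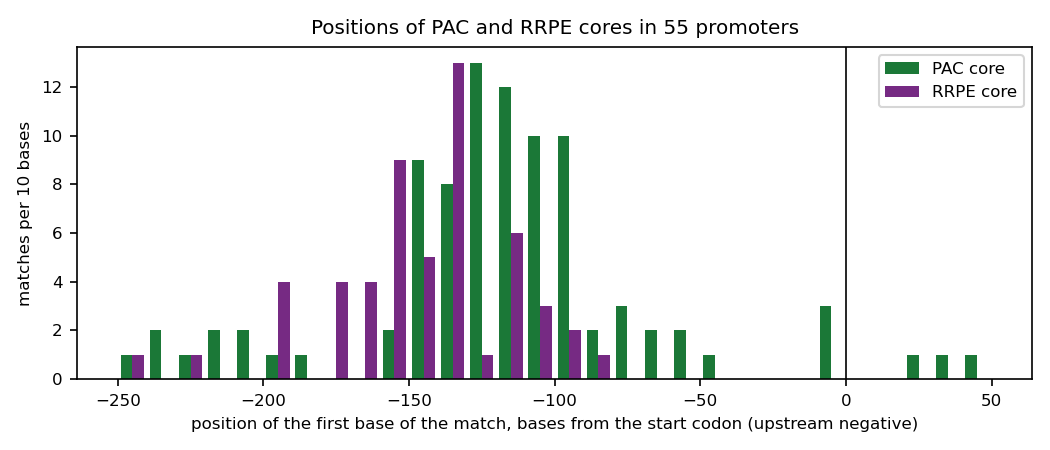
Number of PAC and RRPE matches per 10 bases (y axis) by the position of their first base relative to the start codon (x axis, bases, upstream negative) in the 55 promoters. Matches of both kinds gather between 200 and 50 bases before the start codon, with medians of -119 for PAC and -141 for RRPE.

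Genes with both elements fell further than those with PAC alone, as a description of these 55 genes. The median azide change of the 36 genes with both was -1.77 in Δsbp1, -0.68 in Δscd6 and -1.12 in the wild type, and that of the 16 with PAC alone was -1.04 in Δsbp1, -0.28 in Δscd6 and -0.61 in the wild type. The pattern had exceptions at both ends, since RPF1 holds both elements and SPB1 lacks PAC. Of the 7 genes called with azide in no strain, NUG1, NOP16, RSA3, RRP1 and NOP12 hold PAC without RRPE, while DBP9 and RRP8 hold both. Outside the set, 179 genes hold both elements, and their median was -0.88 in Δsbp1, -0.45 in Δscd6 and -0.55 in the wild type. There 113 of the 179 fell in Δsbp1, 75 in Δscd6 and 91 in the wild type, against 27.4%, 20.4% and 20.6% of all genes. The 179 include 36 genes of the small subunit processome and 40S assembly, 10 other 60S assembly genes and 6 of RNA polymerase I and Rrn3, lists described below. Also outside the set, 906 genes with PAC alone had medians of -0.10 in Δsbp1, -0.06 in Δscd6 and -0.01 in the wild type. The medians of 200 such genes with RRPE alone were -0.25 in Δsbp1, -0.17 in Δscd6 and -0.29 in the wild type. Over the 4414 genes with neither element the median was 0.07 in Δsbp1, 0.04 in Δscd6 and 0.02 in the wild type.

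Other genes of ribosome production moved the same way to differing extents. Of 60 genes of the small subunit processome and 40S assembly, 49 fell and 1 rose in Δsbp1, 32 fell and 0 rose in Δscd6, and 32 fell and 1 rose in the wild type, with medians of -1.35 in Δsbp1, -0.53 in Δscd6 and -0.65 in the wild type. The authors' deposited table listed RRP12, a factor of ribosome export, at -4.11 in Δsbp1, -1.67 in Δscd6 and -3.24 in the wild type, and RRP5, needed for both subunits, at -3.91 in Δsbp1, -1.46 in Δscd6 and -2.71 in the wild type. LCP5 was the exception that rose in the wild type, by 0.53 in the authors' deposited table. Of 32 other genes of 60S assembly, 18 fell and 1 rose in Δsbp1, 14 fell and 0 rose in Δscd6, and 13 fell and 0 rose in the wild type. Their median was -0.94 in Δsbp1, -0.45 in Δscd6 and -0.37 in the wild type, so on this list Δscd6 was not the strain nearest 0. URB1 was at -2.62 in Δsbp1, -1.08 in Δscd6 and -2.04 in the wild type, and ARB1, an ATPase, at -2.14 in Δsbp1, -0.87 in Δscd6 and -1.89 in the wild type, by the authors' deposited table.

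Of 8 genes of RNA polymerase I and its factor Rrn3, 7 fell in each strain, with medians of -2.23 in Δsbp1, -1.27 in Δscd6 and -1.34 in the wild type. The largest subunits, RPA190 and RPA135, were at -2.90 and -2.81 in Δsbp1, -1.39 and -1.31 in Δscd6, and -1.97 and -1.59 in the wild type in the authors' deposited table. The 76 genes of large-subunit ribosomal proteins, the parts that these factors assemble, were shifted down by small amounts. Of these 17 fell in Δsbp1, 22.4%, 19 in Δscd6, 25.0%, and 18 in the wild type, 23.7%, and 1 rose in each strain. Of all genes 27.4% fell in Δsbp1, 20.4% in Δscd6 and 20.6% in the wild type. The share of falls was thus near that of all genes, and the shift lies in the sign and the median. In sign, 72.4% lay below 0 in Δsbp1, 98.7% in Δscd6 and 94.7% in the wild type. Their median was -0.27 in Δsbp1, -0.51 in Δscd6 and -0.46 in the wild type. RPL6B and RPL17B were the largest falls in the wild type, at -1.13 and -0.98, and RPL15B rose by 1.04, in the authors' deposited table. Many ribosomal protein genes have near-identical copies, so their counts are uncertain. Between azide-treated Δsbp1 and azide-treated wild type cells 2 of the 76 were lower, where 11.9% of all genes were. That compares with 53 of the 60 small subunit genes, 19 of the 32 other 60S genes and 7 of the 8 polymerase genes.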

How the data were processed

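Bulk RNA of 12 libraries was sequenced, and the data used were 7 tables of the authors' own comparisons. The submitters' processing notes name STAR 2, Picard, featureCounts and edgeR, without roles. The build, annotation, strand setting and test were not given in the sources used here. Per the file headers, each deposited table holds a mean normalised count (a signal), a fold change (a linear ratio), its log2, and raw and adjusted p-values for 6352 genes. Adjusting the authors' raw p-value by Benjamini-Hochberg gave their adjusted one to within 4.6e-08. The planned analysis of these tables took the authors' p-values as the test, since they hold no values per library.

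Standard errors were implied as the absolute log2 change divided by the normal quantile that its p-value gives, for changes of at least 0.02. Differences of azide responses were tested against a normal distribution with these errors. Benjamini-Hochberg adjustment was over all genes that had a value (6331 for Δscd6 minus wild type, 6329 for Δsbp1 minus wild type and 6142 for Δsbp1 minus Δscd6). A check of the code on simulated data drew normal noise with these same errors, so it could not test the errors themselves. The variance of a difference from the wild type was the larger of that from both azide responses and that from both strain comparisons. Group means were rebuilt from the mean count and the fold changes, giving the 6 groups equal weight. Promoter windows came from RefSeq, assembly R64, by locus tag. The tools were scipy 1.17.1, numpy 2.4.6, matplotlib 3.10.9 and pandas 2.3.3 under Python 3.11.15.

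The 55 genes, the comparison lists and the naming rule were chosen with earlier results of these data known. The rule names the 8 largest falls and each rise per azide comparison, up to 8 calls per direction per strain comparison, 5 per direction per difference, the lowest and highest gene of each role, genes that passed in no azide comparison, and the paralogues SSF1 and SSF2. Of other lists it names up to 2 genes per direction. Genes outside it were chosen after their values were seen. Alternatives were another adjusted p threshold, a minimum change, a filter on low counts, equal totals, centring, and leaving out the paralogues. For differences they were another route to the error and another minimum change. For promoters they were longer motifs and a shorter window.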

Additional observations from a re-analysis of the deposited data

Results flagged for a closer look

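The azide response of some 60S assembly factor genes differed between strains by the test of the difference itself. In Δscd6 minus the wild type, 3 genes passed, with differences of 1.84 for SPB1, 1.11 for RLP24 and 1.09 for DBP10 on the log2 scale. Of all genes 2.18% were called more positive and 1.94% more negative in that difference. In Δsbp1 minus the wild type, 9 passed, the 5 furthest from 0 being MAK16 at -2.55, RIX7 at -2.38, RSA4 at -2.24, NOP4 at -1.47 and RPF2 at -1.31. There 1.67% of all genes were called more negative and 0.553% more positive. In Δsbp1 minus Δscd6, 26 passed, led by SPB1 at -3.08, RIX7 at -2.80, MAK16 at -2.34, RSA4 at -2.33 and NOP4 at -2.23. For that difference 4.04% of all genes were called more negative and 1.53% more positive. Related lists had such genes too. In Δsbp1 minus the wild type, 11 of 60 genes of the small subunit processome and 40S assembly passed. So did 3 of 32 other 60S genes and 3 of 8 polymerase I and Rrn3 genes. All of these were more negative in Δsbp1. In Δscd6 minus the wild type, 3 of 59 tested, 2 of 32 and 0 of 8 passed on these lists. The 3 were more positive in Δscd6, and of the 2, 1 was more positive and 1 more negative. Beside the shares of all genes in that difference, these counts are too few to set the lists apart. The errors behind these tests were implied from p-values and not measured over libraries.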

How the results depend on the processing

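Only scaling to equal totals and centring move the log2 values, so the other alternatives could not change a sign. Under those that move them, no called gene of the 55 changed sign. The counts for azide in Δsbp1 and in the wild type, for azide-treated Δsbp1 against the wild type and for both differences that involve Δsbp1 stayed within 1.5 times of the main count throughout. Asking for a change of at least 1 on the log2 scale left 13 genes fallen with azide in Δscd6 (30 without it), 0 lower in untreated Δsbp1 (3 without it) and 1 higher in azide-treated Δscd6 (4 without it), since fewer genes can then be called. An adjusted p under 0.01 left 1 gene lower in untreated Δsbp1, 2 higher in azide-treated Δscd6 and 1 in the difference of azide responses between Δscd6 and the wild type (3 at 0.05). Scaling to equal totals gave 18 calls with azide in Δscd6, 16 falls and 2 rises, and 10 in untreated Δscd6 against the wild type, where the main count was 0. Longer motifs left 11 promoters with both elements, against 36, or 20.0% against 65.5% of the 55. Over all promoters the share with both was 0.730% with longer motifs, against 3.74%. No paired analysis was possible because the tables hold no values per library. Depth per library is unknown here, so no interval based on counts is given.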
